A study of Homo sapiens with 4 samples.

Results

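The alpha- and beta-tubulin isotypes are described here across 4 RNA sequencing libraries of HGC-27, a cell line from a human gastric cancer. The 10 members, TUBA1A, TUBA1B, TUBA1C, TUBA4A, TUBB, TUBB2A, TUBB2B, TUBB3, TUBB4B and TUBB6, were found by symbol among the 62443 genes of the deposited table after its Ensembl gene IDs had been matched to gene names. They comprise 4 alpha- and 6 beta-tubulin genes. They were chosen by their FPKM difference between the GLUP and control libraries, so that difference is given for each member as a description, with no test.

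The study engineered GLUP, a synthetic linker peptide meant to tie molecules of the transcription factor TEAD4 together, and sequenced RNA to find the pathways that it altered. In 2 libraries the cells had been given 10 μg/ml GLUP, for 12 h by the study's results and 48 h by its methods, and 2 libraries came from control cells. For the control cells the labels give the treatment as none, whereas the methods name the peptide's stocking buffer. All cells were grown in the same serum-supplemented medium, and the labels do not say whether the 2 libraries of a group came from separate cultures, so their spread may be technical.

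Alpha- and beta-tubulin pair into the heterodimer from which microtubules are built, the polymers that form the mitotic spindle and carry cargo in the cell. Human cells hold several genes for each subunit, whose proteins are alike over most of their length and differ chiefly in the acidic C-terminal tail, the part that projects from the microtubule and is modified by enzymes. Cells also adjust tubulin mRNA to the amount of unpolymerised tubulin: TTC5 binds the first residues of a tubulin chain as it leaves the ribosome and, through SCAPER and the CCR4-NOT complex, has the mRNA degraded.

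The signal for this autoregulation lies in the first 4 codons, which are shown in capitals in the first 30 coding bases, 5′ to 3′, read from the GRCh37 genome by the GENCODE annotation. TUBA1A, TUBA1B and TUBA1C had the same 30 bases there, and TUBA4A differed within its first 4 codons. The beta genes fell into 4 spellings of the first 4 codons, of which TUBB and TUBB4B shared one and TUBB3 and TUBB6 another. Within each family these spellings differed only in synonymous codons. Every alpha gene encodes Met-Arg-Glu-Cys there and every beta gene Met-Arg-Glu-Ile.
TUBA1B: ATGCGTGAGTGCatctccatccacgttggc
TUBA4A: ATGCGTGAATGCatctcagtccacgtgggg
TUBB: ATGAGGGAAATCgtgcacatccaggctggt
TUBB2A: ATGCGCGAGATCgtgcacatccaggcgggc
TUBB2B: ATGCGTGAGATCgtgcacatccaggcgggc
TUBB3: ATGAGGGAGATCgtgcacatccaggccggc

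The last 60 coding bases encode the C-terminal tail, where the isotypes part. They are shown, with the stop codon in capitals, for TUBB, the beta gene with the highest values, and for TUBB3, so that the tails of a general and a neuronal isotype can be compared. Over the whole coding sequence, the 6 alpha pairs were identical at 84.4% to 97.2% of positions and the 15 beta pairs at 80.9% to 98.1%, whereas an alpha and a beta gene matched at 52.2% to 53.9%.
TUBB: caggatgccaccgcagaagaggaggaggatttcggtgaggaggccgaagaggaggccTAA
TUBB3: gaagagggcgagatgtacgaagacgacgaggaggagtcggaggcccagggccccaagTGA

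The values are FPKM, the fragments of a gene divided by its length and by the number of mapped fragments, so levels of different genes can be set side by side. Where a pair of values is given for a group, replicate 1 comes first. They sum to between 909735 and 949919 over the genes of a library. Low values are no multiples of a single read's worth, so the depth stays unknown and counting error cannot be stated. On the log2(FPKM + 1) scale, where limma compared the 7588 genes whose mean reached 1 FPKM, Pearson's r across genes was 0.986 between the GLUP libraries and 0.933 between the controls. It was 0.873 and 0.886 between control replicate 2 and the GLUP libraries, and 0.952 and 0.957 for control replicate 1. Control replicate 2 thus stood apart from the other 3 libraries, and the members are also given against each control library alone. The median of all genes was lower in the GLUP group by 0.36 on the log2 scale. Of 4 genes of mesenchymal or undifferentiated tumour cells, VIM lay between 293 and 387 FPKM, and ZEB1 stood at 7.05 and 19.2 FPKM in the controls and 2.88 and 2.92 with GLUP. FN1 stood at 1.15 and 3.25 in the controls and 0.655 and 0.671 with GLUP, and CDH2 was at or below 0.0508 FPKM. The median log2 fold change of the 3 of them tested was −0.86. Of 5 epithelial genes, EPCAM and CDH1 were at or below 0.124 FPKM in every library, while the keratins were low but higher with GLUP. KRT18 stood at 0.957 and 1.00 FPKM in the controls and 2.25 and 1.64 with GLUP, KRT8 at 1.05 and 1.49 and then 2.25 and 2.19, and KRT19 at 0.764 and 1.05 and then 1.32 and 1.34. Their median log2 fold change was 0.51, and all 3 had both GLUP libraries above both controls, beside 17.5% of all genes tested. EPCAM and CDH1 went the other way near 0. EPCAM stood at 0.124 and 0.0766 FPKM in the controls and 0.0451 and 0 with GLUP. CDH1 stood at 0.0687 and 0.0799 FPKM in the controls and was listed at 0 with GLUP. The part of these markers in the values of the isotypes was not tested. Of the leukocyte markers PTPRC was at or below 0.0394 FPKM, LYZ at or below 0.250 FPKM and CD14 at or below 0.0147 FPKM, and CD3E was listed at 0. The summed endothelial markers were at or below 0.00591 FPKM.

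Most of the alpha-tubulin signal came from TUBA1B, the alpha isotype of most dividing cells. TUBA1B stood at 819 FPKM in control replicate 1, 258 in control replicate 2, 3342 in GLUP replicate 1 and 2559 in GLUP replicate 2. Both GLUP libraries lay above both control libraries, and the control libraries differed from each other 3.18-fold. Among all genes ranked by FPKM, TUBA1B held rank 164 and rank 356 in the control libraries and rank 44 and rank 58 in the GLUP libraries. The GLUP mean, 2950 ± 553 FPKM (SD, n = 2), was 5.48 times the control mean of 538 ± 397 FPKM (SD, n = 2), which was a log2 fold change of 2.67 (SE 0.57) on the log2(FPKM + 1) scale. Against control replicate 1 alone the ratio was 3.60, and against control replicate 2 alone 11.4. In RNA from whole cultures, more cells with a high level and more RNA per cell cannot be told apart.

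TUBA1A, the alpha isotype best known from developing neurons, had a similar pattern at a lower level. Its values were 147 and 39.4 FPKM in control replicates 1 and 2, and 547 and 412 FPKM in GLUP replicates 1 and 2. The groups did not overlap, and control replicate 2 was again the lowest library. The GLUP mean was 5.14 times the control mean, a log2 fold change of 2.62 (SE 0.64), and was 3.26 times control replicate 1 and 12.2 times control replicate 2.

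TUBA1C, a widely expressed isotype, stood at 50.5 and 25.4 FPKM in the controls and at 146 and 121 FPKM with GLUP. The GLUP libraries were both higher, with a ratio of means of 3.52 and a log2 fold change of 1.86 (SE 0.43). The ratio was 2.64 against control replicate 1 and 5.25 against control replicate 2. TUBA4A, an alpha isotype of platelets, nerve and muscle, was near the limit of the test, with 1.19 and 0.217 FPKM in the controls and 2.06 and 1.17 FPKM with GLUP. Its groups overlapped, since GLUP replicate 2 lay below control replicate 1, and its log2 fold change was 0.66 (SE 0.36).

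**Figure D1:**
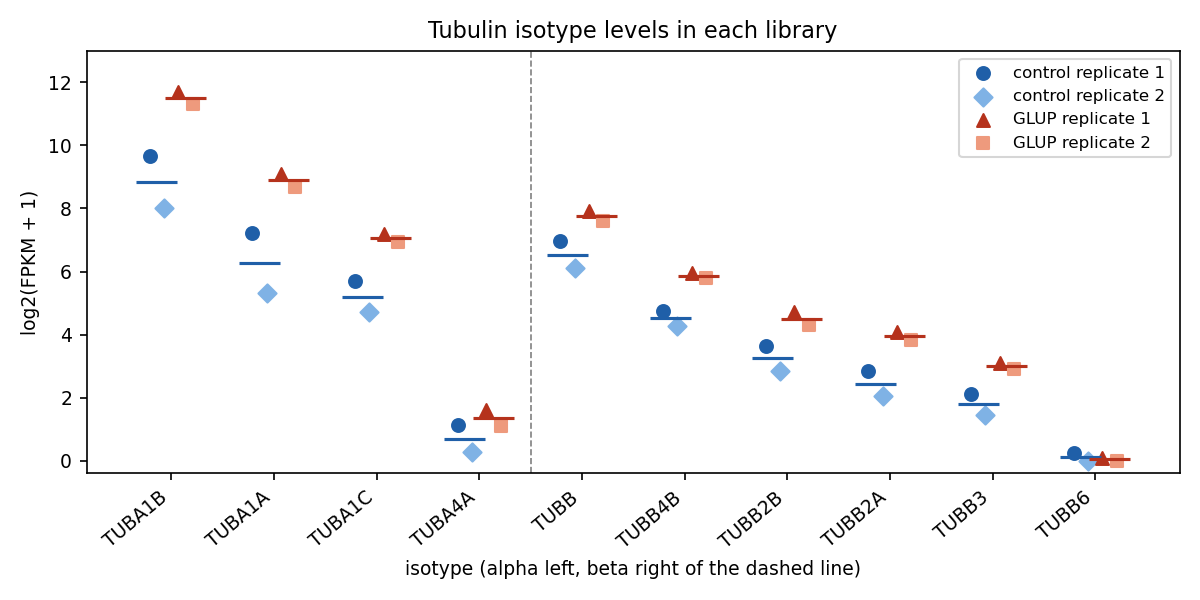
Levels of the 10 tubulin isotypes as log2(FPKM + 1) in each of the 4 libraries, with alpha isotypes on the left and beta isotypes on the right of the dashed line. Points are single libraries and horizontal lines are group means (n = 2 each); both GLUP libraries sit above both control libraries for 8 of the 10 isotypes, and control replicate 2 is the lower of the control libraries for all 10.

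TUBB, which encodes the main beta-tubulin of dividing cells, led the beta isotypes. It stood at 123 FPKM in control replicate 1, 68.0 in control replicate 2, 242 in GLUP replicate 1 and 192 in GLUP replicate 2. The GLUP libraries were both higher, but the ratio depended on the control library, at 1.76 against control replicate 1 and 3.19 against control replicate 2. The GLUP mean of 217 ± 35.6 FPKM (SD, n = 2) was 2.26 times the control mean of 95.7 ± 39.2 FPKM (SD, n = 2), and the log2 fold change was 1.22 (SE 0.41).

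TUBB4B, a broadly expressed isotype that is also abundant in cilia, was the second beta isotype by level. Its control values were 25.8 and 18.5 FPKM and its GLUP values 61.1 and 54.2 FPKM. Its control libraries were the closest of any member, within 1.40-fold of each other. The ratio was 2.24 against control replicate 1 and 3.12 against control replicate 2, and the log2 fold change was 1.36 (SE 0.34).

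TUBB2A and TUBB2B are neighbours on chromosome 6 and are known from the brain. TUBB2B was the higher of the pair in every library, with 11.6 and 6.23 FPKM in the controls and 25.1 and 18.8 FPKM with GLUP, a log2 fold change of 1.26 (SE 0.40). TUBB2A stood at 6.22 and 3.11 FPKM in the controls and at 16.0 and 13.3 FPKM with GLUP, a log2 fold change of 1.52 (SE 0.38). Both GLUP libraries were higher for each gene. Against control replicate 1 the ratio was 2.35 for TUBB2A and 1.90 for TUBB2B, and against control replicate 2 it was 4.70 and 3.53.

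TUBB3, the isotype used as a marker of neurons and also studied in tumours for its link to taxane resistance, was found at a low level. It stood at 3.35 and 1.73 FPKM in the controls and at 7.54 and 6.51 FPKM with GLUP. The groups did not overlap, with a log2 fold change of 1.22 (SE 0.34) and ratios of 2.09 and 4.06 against control replicates 1 and 2. The neuronal markers RBFOX3 and DCX were listed at 0 in every library, and MAP2 was at or below 0.00496 FPKM. SYT1 stood at 1.13 and 1.01 FPKM in the controls and 1.45 and 0.919 FPKM with GLUP, which overlapped. SNAP25 was lower with GLUP, at 0.724 and 1.24 FPKM in the controls and 0.198 and 0.257 FPKM with GLUP. The summed neuronal list was 1.86 and 2.26 FPKM in the controls and 1.64 and 1.18 FPKM with GLUP.

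TUBB6, a divergent beta isotype, was the only member that was not tested, because its mean was below 1 FPKM. It stood at 0.186 FPKM in control replicate 1 and 0.0611 FPKM in GLUP replicate 1 and was listed at 0 in the other 2 libraries.

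In total, 8 of the 10 members were over 2-fold higher in the GLUP group on the log2(FPKM + 1) scale, and the same number had both GLUP libraries above both control libraries. Of all 7588 genes tested, 6.83% were over 2-fold higher and 17.5% had both GLUP libraries above. These are the values by which the members were chosen, and nothing is read from the comparison. With limma and Benjamini-Hochberg adjustment over all genes, a fold change over 2 with an adjusted p under 0.05 was reached by 1 gene in the higher direction (0.0132%) and 1 in the lower (0.0132%). Against control replicate 1 alone 5 of the 9 members tested were over 2-fold higher, beside 2.31% of all genes, and against control replicate 2 alone all 9 were, beside 13% of all genes. The median log2 fold change of the 9 was 1.36, or 1.71 above the median of all genes, and it was 1.11 against control replicate 1 and 1.65 against control replicate 2.

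**Figure D2:**
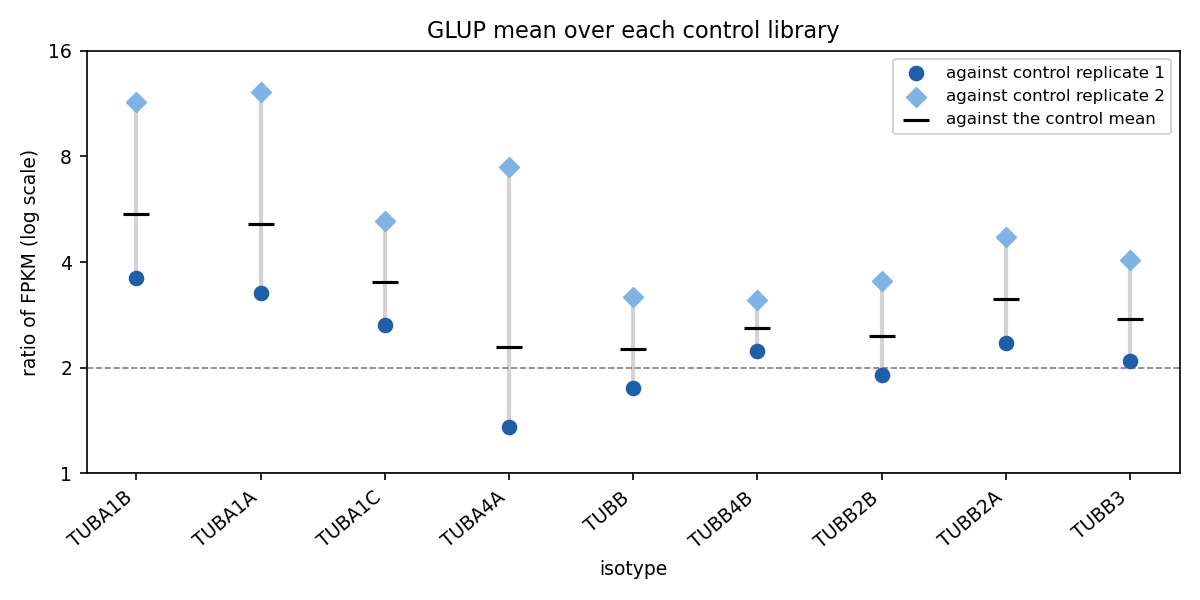
Ratio of the GLUP mean FPKM to each control library alone (circles, control replicate 1; diamonds, control replicate 2) and to the control mean (dashes) for the 9 isotypes tested, on a log scale, with the dashed line at 2-fold. Every ratio is above 1; the ratio against control replicate 1 runs from 1.36 for TUBA4A to 3.60 for TUBA1B, and that against control replicate 2 from 3.12 for TUBB4B to 12.2 for TUBA1A.

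The control libraries differed from each other for every member. Control replicate 2 was lower for all 10, and the ratio of control replicate 1 to control replicate 2 ran from 1.40 for TUBB4B to 5.50 for TUBA4A among the 9 tested, while that of GLUP replicate 1 to GLUP replicate 2 ran from 1.13 to 1.77. On the log2 scale the median difference of control replicate 2 from control replicate 1 was −0.85 for the members tested and −0.07 for all genes. Of the members, TUBA1A and TUBA1B were over 2-fold lower in control replicate 2 on that scale, against 12% of all genes tested.

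The order of the levels was nearly the same in the 4 libraries: TUBA1B, TUBA1A, TUBB, TUBA1C, TUBB4B, TUBB2B, TUBB2A, TUBB3, TUBA4A and TUBB6. The exception was control replicate 2, where TUBB lay above TUBA1A. Of the 9 pairs of neighbours in this order, 3 overlapped between the control libraries, namely TUBA1A with TUBB, TUBA1C with TUBB4B and TUBB2A with TUBB3. No pair of neighbours overlapped between the GLUP libraries.

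The summed alpha isotypes differed more between the groups than the summed beta isotypes. Alpha-tubulin summed to 1018 and 323 FPKM in the controls and to 4037 and 3093 FPKM with GLUP, a ratio of means of 5.32. Beta-tubulin summed to 171 and 97.6 FPKM in the controls and to 352 and 284 FPKM with GLUP, a ratio of 2.37. The alpha sum was therefore 5.97 and 3.31 times the beta sum in control replicates 1 and 2, and 11.5 and 10.9 times in GLUP replicates 1 and 2. Against control replicate 1 alone the sums were 3.50-fold and 1.86-fold higher, and against control replicate 2 alone 11.0-fold and 3.26-fold. Both sums were a small part of all FPKM: alpha-tubulin took 0.112% and 0.0350% in the controls and 0.431% and 0.326% in the GLUP libraries, and beta-tubulin between 0.0106% and 0.0376%.

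Within each family the mix of isotypes varied by a few percentage points. TUBA1B made up 80.4% and 79.9% of the alpha sum in the controls and 82.8% and 82.7% in the GLUP libraries. The share of TUBA1A lay between 12.2% and 14.5%, and that of TUBA1C was 4.96% and 7.87% in the controls and 3.62% and 3.90% in the GLUP libraries. TUBA4A took 0.117% and 0.0671% in the controls and 0.0511% and 0.0377% with GLUP. TUBB made up 72.4% and 69.7% of the beta sum in the controls and 68.8% and 67.3% in the GLUP libraries, followed by TUBB4B at 15.1% to 19.1%. TUBB2A took 3.65% and 3.19% in the controls and 4.56% and 4.67% in the GLUP libraries. TUBB2B stayed between 6.38% and 7.14%, and TUBB3 between 1.77% and 2.29%. TUBB6 took at most 0.109%. The groups did not overlap in the shares of TUBA1B, TUBA1C, TUBA4A, TUBB, TUBB2A and TUBB3. They did in those of TUBA1A, TUBB2B, TUBB4B and TUBB6. Shares of a family are parts of one sum, so a rise of one lowers others, and the differences were not tested.

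**Figure D3:**
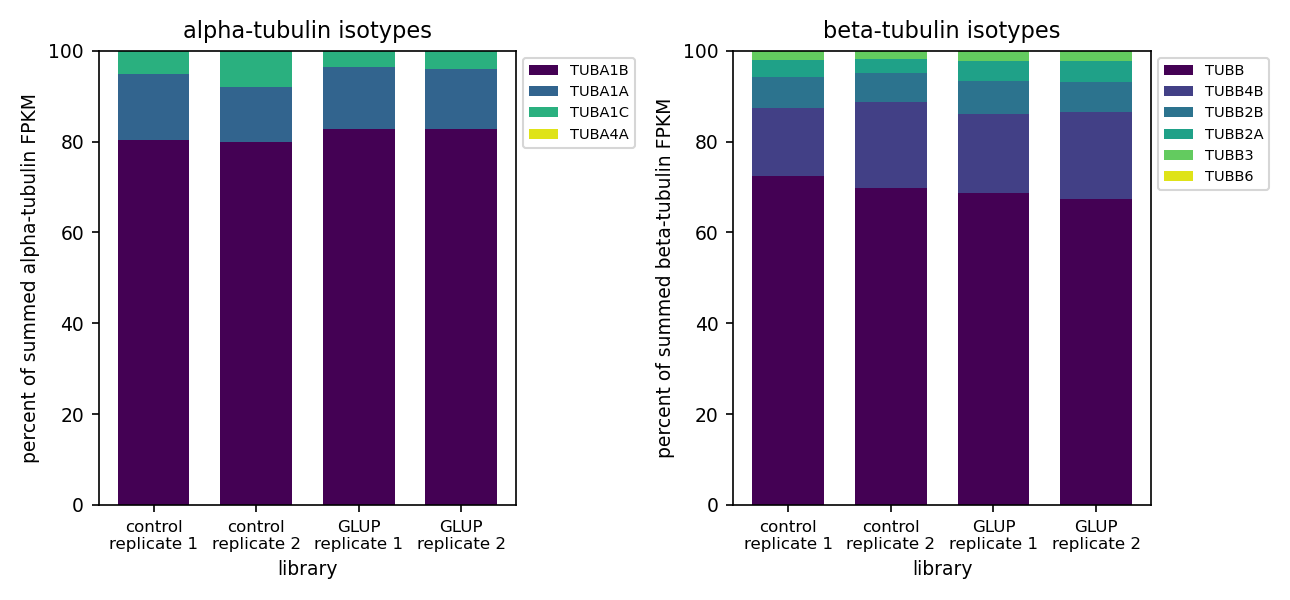
Percent of the summed alpha-tubulin FPKM (left) and beta-tubulin FPKM (right) held by each isotype in the 4 libraries, as stacked bars from 0 to 100. TUBA1B holds 79.9% to 82.8% of the alpha sum and TUBB 67.3% to 72.4% of the beta sum in every library; TUBA4A and TUBB6 are too small to be seen.

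The remaining alpha- and beta-tubulin genes did not add to these sums. Of 9 further isotype genes, TUBA3C, TUBA3D, TUBA3E, TUBA8, TUBAL3, TUBB1, TUBB4A, TUBB8 and TUBB8B, none reached a mean of 1 FPKM and 5 were listed at 0 in every library. Their sum was 0.474 and 0.152 FPKM in the controls and 0.851 and 0.582 FPKM with GLUP.

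Several members share sequence or genome position with other genes, so the way in which the authors' counting split reads can move their values. Reads were represented here by windows of 100 bases of one transcript per gene. Of the TUBB3 windows, 92.5% also occur in transcripts of another gene, chiefly the readthrough gene ENSG00000198211 on the same strand. That gene was listed at 0 in 3 libraries and at 0.546 FPKM in GLUP replicate 1. TUBB2A and TUBB2B shared 814 windows with each other, and 55.6% and 48.7% of their windows were found in another gene. For TUBA1B the share was 37.2%, with 282 windows in common with TUBA1A and 284 with TUBA1C, and for TUBA1A it was 21.2%. TUBB, TUBB4B and TUBA4A shared 5.4%, 3.0% and 1.9%, and TUBB6 none. The split between TUBA1A and TUBA1B and that between TUBB2A and TUBB2B is uncertain to this extent.

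TUBA1B lies on the minus strand at chr12:49521565-49525180 (GRCh37), and the long non-coding gene TUBA1B-AS1 is annotated on the opposite strand across 1571 of its exon bases. TUBA1B-AS1 stood at 251 FPKM in control replicate 1, 33.2 in control replicate 2, 1305 in GLUP replicate 1 and 845 in GLUP replicate 2. It followed the pattern of TUBA1B, at 30.7% and 12.9% of its FPKM in the controls and 39.0% and 33.0% in the GLUP libraries. Its log2 fold change was 3.50 (SE 0.92), and the ratio of means was 7.57, or 4.28 against control replicate 1 and 32.4 against control replicate 2. Whether the counting used strand is not given in the sources used here, and without strand reads from the 2 genes cannot be told apart. With both added up, the ratio of means was 5.92, close to the 5.48 of TUBA1B alone.

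TUBA1A lies on the minus strand of the same chromosome at chr12:49578469-49582863 and TUBA1C on the plus strand at chr12:49582519-49668383, with 345 exon bases of the annotated genes in common. On the minus strand opposite TUBA1C, ENSG00000258232 shared 666 exon bases and stood at 16.5, 0, 6.40 and 22.8 FPKM in control replicates 1 and 2 and GLUP replicates 1 and 2, and ENSG00000258101, which shared no exon base with it, was at or below 0.659 FPKM. TUBA4A, at chr2:220114432-220142624 on the minus strand, shared 628 exon bases with the kinase gene STK16 on the opposite strand, which stood at 1.17 and 0.423 FPKM in the controls and 1.58 and 2.75 FPKM with GLUP. TUBA4B, also opposite TUBA4A, was listed at 0 throughout. TUBA1B-AS1 also shared 68 exon bases with TUBA1A on the opposite strand. Of the TUBA1A windows, 15.6% occurred as the reverse complement in a transcript of another gene. For TUBA1A, TUBA1C and TUBA4A, too, reads of opposite genes cannot be told apart without strand.

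Among the beta genes, TUBB at chr6:30685212-30693315 (plus strand) shared 538 exon bases with ENSG00000272540, at or below 0.542 FPKM, and 13 with MDC1, a DNA damage mediator between 0.649 and 1.10 FPKM. TUBB2A at chr6:3153731-3157778 and TUBB2B at chr6:3223558-3231964, both on the minus strand, touched BPHL and PSMG4 over 82 and 174 exon bases. BPHL stood at 5.20 and 5.87 FPKM in the controls and 10.0 and 10.2 in the GLUP libraries, and PSMG4 at 22.7 and 26.7 FPKM in the controls and 15.8 and 21.0 in the GLUP libraries. TUBB3 at chr16:89987800-90005169 and TUBB4B at chr9:140135739-140138159 lie on the plus strand, and the genes opposite them, ENSG00000259006 and FAM166A, were at or below 0.0296 FPKM. TUBB6, at chr18:12307668-12344319 on the plus strand, shared 837 exon bases with AFG3L2 on the opposite strand, which stood at 5.75, 4.88, 2.91 and 2.48 FPKM in the same order of libraries.

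Tubulin pseudogenes carry copies of the coding sequence and can take up reads of the members. Of 48 annotated alpha- and beta-tubulin pseudogenes, 35 were listed at 0 in every library and 3 were tested. TUBAP2, which shared 99 windows with TUBA1B, stood at 1.73 and 0.779 FPKM in the controls and 8.73 and 8.17 FPKM with GLUP, and TUBBP1, which shared 131 with TUBB, at 1.82 and 0.567 in the controls and 4.72 and 4.21 in the GLUP libraries. TUBB2BP1, which shared windows with TUBB2A and TUBB2B, stood at 0.830 and 0 FPKM in the controls and 1.54 and 1.82 FPKM with GLUP. The summed pseudogenes, 4.81 and 1.90 FPKM in the controls and 15.6 and 14.7 FPKM with GLUP, followed the members but were far below their sums.

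Since 8 of the members were higher together, promoters are shown for the isotypes at the ends of the range. TUBA1B and TUBA1A had the largest fold changes, TUBB4B differed least between control libraries, and TUBB6 was near 0 FPKM. Each line gives the 250 bases before a RefSeq start (GRCh38.p14), 5′ to 3′ on the strand of the gene, and capitals mark the letters GGAATG (bound by TEAD factors), CCAAT, or TATAAA or TATATA, on either strand.
TUBA1B, chr12:49131396-49131645, minus strand: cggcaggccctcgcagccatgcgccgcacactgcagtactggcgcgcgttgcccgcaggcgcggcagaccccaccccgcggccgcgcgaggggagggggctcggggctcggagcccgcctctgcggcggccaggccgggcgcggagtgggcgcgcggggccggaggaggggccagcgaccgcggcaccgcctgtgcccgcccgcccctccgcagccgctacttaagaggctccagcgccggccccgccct
TUBA1A, chr12:49189081-49189330, minus strand: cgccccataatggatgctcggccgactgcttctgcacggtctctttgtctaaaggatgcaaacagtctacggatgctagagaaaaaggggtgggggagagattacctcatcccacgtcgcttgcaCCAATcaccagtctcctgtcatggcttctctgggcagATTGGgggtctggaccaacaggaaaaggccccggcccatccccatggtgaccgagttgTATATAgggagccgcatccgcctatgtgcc
TUBB4B, chr9:137241037-137241286, plus strand: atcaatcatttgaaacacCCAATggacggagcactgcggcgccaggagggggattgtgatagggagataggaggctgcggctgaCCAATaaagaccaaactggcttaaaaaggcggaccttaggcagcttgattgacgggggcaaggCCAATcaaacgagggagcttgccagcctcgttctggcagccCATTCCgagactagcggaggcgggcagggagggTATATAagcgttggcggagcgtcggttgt
TUBB6, chr18:12307419-12307668, plus strand: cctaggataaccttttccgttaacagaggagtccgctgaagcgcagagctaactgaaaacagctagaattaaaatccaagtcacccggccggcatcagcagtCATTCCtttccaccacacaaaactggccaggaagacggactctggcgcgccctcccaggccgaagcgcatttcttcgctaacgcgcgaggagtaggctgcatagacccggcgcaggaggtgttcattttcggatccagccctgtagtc

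The promoter of TUBA1B held none of these letters, that of TUBA1A held CCAAT at 2 places and a TATA motif, and that of TUBB4B held 1 TEAD motif, CCAAT at 3 places and a TATA motif. All 10 members were matched in the RefSeq table, with 15 windows between them. The TEAD letters were found in 2 of the 15 windows, one each of TUBB4B and TUBB6, and in 11.9% of all 35116 windows. A further window of TUBB6, at chr18:12307991-12308240 and not shown, held CCAAT at 1 place and no TEAD letters. CCAAT was found in 9 of the 15 windows (7 members) and in 32.0% of all windows, and a TATA motif in 4 (4 members) and in 12.8% of all. For CCAAT, 2 windows of TUBA1C overlap and hold the same letters, so that place is counted in both. The letters GGGCGG were found in 9 windows (8 members) and in 42.6% of all, and TGACGT in 2 (2 members) and in 7.1% of all. A match is a run of letters and not a site shown to be bound.

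Differences between the libraries moved with the GC content of the genes, and the members lie towards its upper end. When the 7570 genes with a known GC content were cut into 5 classes of equal size by the GC of their longest annotated transcript, the median log2 fold change was −0.78, −0.64, −0.41, 0.02 and 0.44 from the lowest to the highest class. The members fell 1 in the middle class, 5 in the next and 3 in the highest. Control replicate 2 minus control replicate 1 ran the other way, with medians of 0.24, 0.14, −0.01, −0.31 and −0.64. After the GC trend of each library had been subtracted, the log2 fold change was 3.09 for TUBA1A (SE 0.64), 2.47 for TUBA1B (SE 0.46) and 2.01 for TUBA1C (SE 0.38). For the beta isotypes it was 1.34 for TUBB2A, 1.25 for TUBB2B, 1.19 for TUBB, 0.97 for TUBB3 and 0.90 for TUBB4B, and for TUBA4A it was 0.27. With this correction 6 of the 9 members were over 2-fold higher, TUBB3 and TUBB4B no longer among them, beside 5.76% of all genes.

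**Figure D4:**
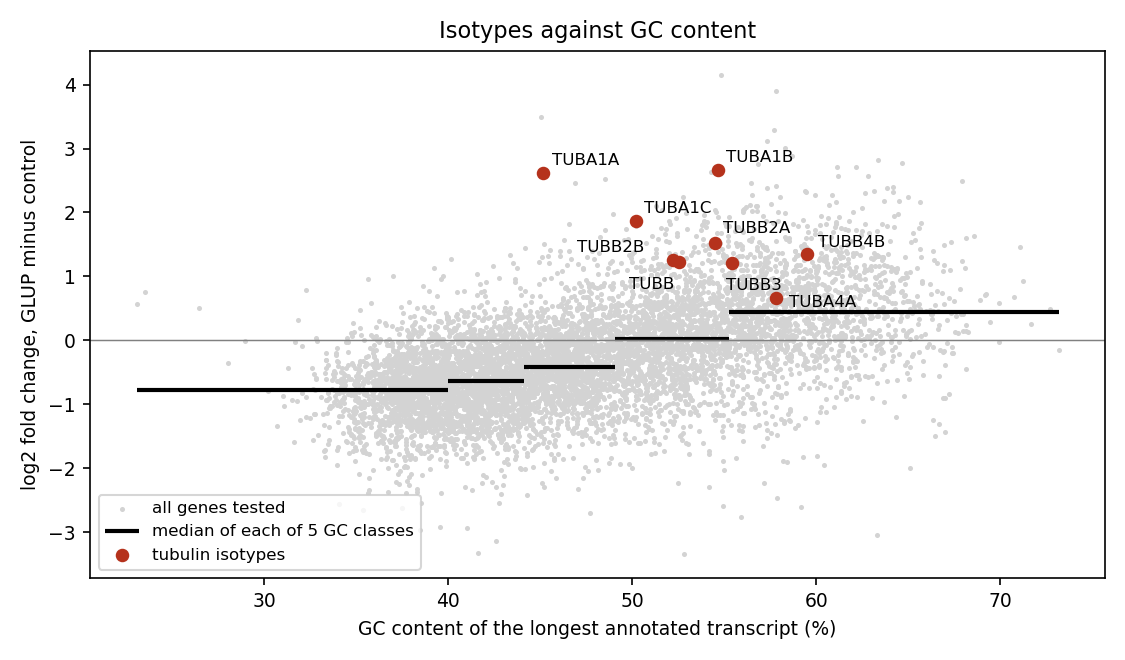
Log2 fold change of GLUP minus control against the GC content of the longest annotated transcript for all genes tested (grey points), with the median of each of 5 equal classes of genes by GC (black lines) and the 9 tested isotypes (red points). The medians climb from −0.78 to 0.44, and the isotypes lie above the median of their class, from 0.66 for TUBA4A to 2.67 for TUBA1B.

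The genes whose profile over the 4 libraries was most like that of the members were HLA-E, P4HB, IDH3G, ENSG00000230979 and SHISA5, at Euclidean distances of 0.203 to 0.272 from the mean profile of the 6 members with at least 10 FPKM, among 2265 genes compared. HLA-E, a non-classical MHC class I gene, stood at 24.9 and 8.89 FPKM in the controls and 62.4 and 50.2 FPKM with GLUP. P4HB, the protein disulfide isomerase, stood at 9.90 and 3.21 FPKM in the controls and 24.4 and 19.3 FPKM with GLUP. Among these 6 members TUBA1C lay closest to this profile, at 0.108, and TUBA1A farthest, at 0.962. TUBB2B, TUBB and TUBB4B lay at 0.615, 0.634 and 0.665, and TUBA1B at 0.927. Every one of these members but TUBA1C thus lay farther from the mean profile than the non-member genes named here.

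Of 107 genes in 8 lists of the microtubule system, 62 were tested, and none passed an adjusted p of 0.05 with a 2-fold change in limma, in either direction. At an unadjusted p under 0.05 with a 2-fold change there were 4 higher and 7 lower, beside 4.67% and 14.5% of all genes. By size alone, 6.45% of the 62 were over 2-fold higher and 12.9% over 2-fold lower, beside 6.83% and 16.3% of all genes. Both GLUP libraries lay above both control libraries for 7 of the 62 and below for 33, beside 17.5% and 49.7% of all genes. These shares of all genes are also the background for the counts of the single lists below. The median log2 fold change of the 62 was −0.42, near the −0.36 of all genes, but single lists lay farther from it. Against control replicate 1 alone none of the 62 was over 2-fold higher and 5 were over 2-fold lower. Of all 7588 genes, 2.31% were higher and 963 genes were lower in that comparison. Against control replicate 2 alone 4 of the 62 were higher and 14 lower, beside 13% of all genes higher and 1767 genes lower.

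Gamma-tubulin, which caps the minus end of microtubules and starts their growth, is a further branch of the tubulin family. TUBG1, the main gamma-tubulin gene, stood at 34.8 and 8.11 FPKM in the controls and at 58.0 and 51.9 FPKM with GLUP, a log2 fold change of 1.63 (SE 0.66), which was 0.64 against control replicate 1 and 2.62 against control replicate 2. Its paralog TUBG2 stood at 2.46 and 1.08 FPKM in the controls and at 5.23 and 4.20 FPKM with GLUP, a log2 fold change of 1.09 (SE 0.34), or 0.72 and 1.45 against the single control libraries. As for the isotypes, GLUP lay above both control libraries and control replicate 2 was the lowest. The other genes of this list, which holds the ring complex and also delta- and epsilon-tubulin (TUBD1 and TUBE1), did not share this pattern. Of the 9 genes tested, TUBG1 and TUBG2 included, 6 had both GLUP libraries below both control libraries, beside 49.7% of all genes. TUBD1 and TUBE1 were among these 6. MZT2B, a small subunit of the ring complex, stood at 90.9 and 83.0 FPKM in the controls and 26.0 and 38.4 FPKM with GLUP. The median of the list was −0.67, or −0.32 relative to all genes, 0.02 relative to all genes after the GC correction, −0.65 when all genes above 0 were used and −0.19 without GLUP replicate 1.

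Of 12 tested genes of tubulin folding, the prefoldin subunits and cofactors that bring tubulin chains to the native heterodimer, 1 was over 2-fold higher and 2 were over 2-fold lower. The higher one was ARL2, a small GTPase that works with the cofactors, at 185 and 77.4 FPKM in the controls and 321 and 282 FPKM with GLUP, a log2 fold change of 0.70 against control replicate 1 and 1.94 against control replicate 2. TBCB, the cofactor that binds alpha-tubulin, stood at 45.8 and 16.3 FPKM in the controls and 5.54 and 7.84 FPKM with GLUP, a log2 fold change of −1.90 (SE 0.53), opposite in sign to the alpha isotypes. The prefoldin subunit PFDN4 stood at 50.6 and 127 FPKM in the controls and 30.9 and 31.0 FPKM with GLUP, a log2 fold change of −1.35 that was −0.69 against control replicate 1 alone. The median of the list was −0.27, against −0.36 for all genes.

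The autoregulation genes had low values and none was over 2-fold apart on the log2(FPKM + 1) scale. TTC5 stood at 1.81 and 0.588 FPKM in the controls and 2.19 and 1.33 FPKM with GLUP, which overlapped. SCAPER stood at 1.07 and 2.33 FPKM in the controls and 0.684 and 0.435 FPKM with GLUP, and CNOT11 at 2.16 and 1.51 FPKM in the controls and 1.11 and 1.10 FPKM with GLUP. For both of these the GLUP libraries were lower, with log2 fold changes of −0.76 (SE 0.30) and −0.42 (SE 0.25).

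None of the 7 tested tubulin-modifying enzymes was over 2-fold apart on the log2(FPKM + 1) scale. TTLL12, a member of the tubulin ligase family, was the highest by log2 fold change, at 0.82 (SE 0.24), with 0.902 and 0.795 FPKM in the controls and 2.58 and 1.97 FPKM with GLUP. SVBP, the partner of the vasohibins that remove the C-terminal tyrosine of alpha-tubulin, was the lowest, at −0.85 (SE 0.38). The median of the list was 0.18, or 0.53 relative to all genes, with 2 genes above and 3 below in both GLUP libraries. Relative to all genes it was 0.22 with the GC correction and 0.20 when all genes above 0 were used. It was 0.28 without control replicate 2, 0.76 without control replicate 1 and 0.72 with a pseudocount of 0.1.

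Of 10 tested stabilisers and plus-end proteins, none was over 2-fold higher and 1 was over 2-fold lower, with a median of −0.53. The lower gene was MAP1B, a microtubule-associated protein, at 25.8 and 82.1 FPKM in the controls and 14.7 and 17.2 FPKM with GLUP, a log2 fold change of −0.67 against control replicate 1 and −2.30 against control replicate 2. Of 5 tested destabilisers, KIF2A and KIF18A, kinesins that act on microtubule ends, were over 2-fold lower. KIF2A stood at 6.70 and 23.9 FPKM in the controls and 5.26 and 3.65 FPKM with GLUP, a log2 fold change of −0.51 against control replicate 1 and −2.21 against control replicate 2. KIF18A had −0.78 and −1.58 against the same libraries. The median of the list was −0.88, or −0.52 relative to all genes. Relative to all genes it was −0.17 without control replicate 2 and −0.86 when all genes above 0 were used. STMN1, the abundant stathmin that binds free tubulin dimers, overlapped between the groups, at 935 and 539 FPKM in the controls and 773 and 888 FPKM with GLUP.

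Of 16 tested motor genes, 1 was over 2-fold higher and 2 were over 2-fold lower, with a median of −0.44. DCTN1, the large dynactin subunit, stood at 3.18 and 0.303 FPKM in the controls and 6.65 and 4.93 FPKM with GLUP, a log2 fold change of 0.69 against control replicate 1 and 2.37 against control replicate 2. KIF5B, the common kinesin-1 heavy chain, stood at 11.4 and 8.56 FPKM in the controls and 3.39 and 3.25 FPKM with GLUP, a log2 fold change of −1.33 (SE 0.30), and DYNLT3, a dynein light chain, had a log2 fold change of −1.06 (SE 0.26).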

How the data were processed

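RNA was sequenced from HGC-27 cells in 4 libraries, 2 treated with GLUP and 2 controls, grouped by their sample titles. The authors deposited FPKM values, 1 row per gene and library. The submitters' processing notes name HISAT2, Cufflinks, RSEM and GRCh38.p10, with no versions or roles, whereas the row IDs have the form of GENCODE annotation lifted to GRCh37. With versions stripped, 99.55% of the IDs had a GENCODE v44 name, and 49 repeated rows were summed. Whether counting used strand, and how reads that fit several isotypes were shared out, is not given in the sources used here.

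Values were compared as log2(FPKM + 1) with limma 3.58.1 in R 4.3.3, with variances moderated along a mean-variance trend, for the 7588 genes whose mean reached 1 FPKM, and Benjamini-Hochberg adjustment over them. A fold change on this scale understates that of low genes, and ratios are of mean FPKM without a pseudocount. An exact permutation test of 2 against 2 has 0.333 as its smallest two-sided p and was not run. The GC correction subtracted from each library a lowess curve (span 0.3) of its differences from the gene means against transcript GC. Alternatives tried were a pseudocount of 0.1, all genes above 0, a filter at 5 FPKM, median centring, quantile normalization, no trend, the replicate number as a block, the GC correction and leaving out each library.

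The members and the gene lists were chosen with earlier results of these data known. Besides the members, the rule for named genes took the 3 highest and 3 lowest of each list as candidates, the genes that overlap a member, the 3 highest pseudogenes and the 5 genes nearest to the members' profile. The further isotypes and the cell type markers were named as whole lists or by their values. Sequences were read from GRCh37 (coding ends) and from RefSeq promoters of GRCh38.p14. 1 leukocyte marker and the coding ends of the alpha genes are not reported here.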

Additional observations from a re-analysis of the deposited data

How the results depend on the processing

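The log2 fold change of each of the 9 members tested stayed above 0 under every alternative that gave it a value, with the lowest values without control replicate 2 or, for TUBB4B, with the GC correction (0.90). The number of members over 2-fold higher was 8, with 5 to 9 when a library was left out, the 5 without control replicate 2. Their median above that of all genes, 1.71, was 1.97 with a pseudocount of 0.1, 1.38 over all genes above 0, 1.94 at a mean of at least 5 FPKM, 1.25 with the GC correction, alone or with the block, and 1.45 to 2.00 when a library was left out. The same replicate number marks no shared culture or day in the labels, and deviations of same-numbered libraries correlated at 0.126 across genes. With the replicate block 2 genes passed the adjusted threshold, as without it, and 16 did when the GC correction was added. No other alternative that kept all 4 libraries gave more than 2: the count was 1 with a pseudocount of 0.1, with centring or with quantile normalization, and 0 over all genes above 0, at a mean of at least 5 FPKM, without the trend or with the GC correction, where limma gave 1293, 890, 1461 and 700 genes over 2-fold at an unadjusted p under 0.05. Leaving out a library gave 4 to 2710 genes, 2710 without control replicate 1, 1020 without control replicate 2 and 4 without either GLUP library; the lone library left in a group is then assumed to vary like the other group.

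Genes over 2-fold higher and lower numbered 518 and 1235 (29.5% higher). They were 797 and 2043 with a pseudocount of 0.1, 922 and 526 with centring (63.7% higher), 805 and 591 with quantile normalization (57.7%) and 436 and 425 with the GC correction, with or without the block (50.6%), and 815 were lower at a mean of at least 5 FPKM. Leaving out a library gave 175 higher (without control replicate 2) to 990 higher (without control replicate 1), and 963 to 1767 lower. In the 8 lists, 4 genes over 2-fold higher became 2 at a mean of at least 5 FPKM and 0 to 4 when a library was left out, with 0 without control replicate 2. The 8 over 2-fold lower became 16 with a pseudocount of 0.1, 5 with centring, 4 with quantile normalization, 5 with the GC correction, alone or with the block, and 5 to 14 when a library was left out, 5 without control replicate 2 and 14 without control replicate 1. Relative to all genes, the median of tubulin folding, 0.083, changed sign over all genes above 0 (−0.25), with quantile normalization (−0.0064), with the GC correction, alone or with the block (−0.12), and without control replicate 1 (−0.13); it ran from −0.13 to 0.11 over the libraries left out. With the GC correction, alone or with the block, that of the list of gamma-tubulin, its ring complex, TUBD1 and TUBE1 became 0.022. That of the motors became 0.073 with the same correction. That of autoregulation ran from −0.082 to 0.087 over the libraries left out, with 0.087 without control replicate 1. The causes were not tested. Depth is unknown.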
